A study of Homo sapiens with 16 samples.

Results

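The genes described here are 42 factors that build ribosomes, among them RNA polymerase I and its initiation factors. They were chosen by name, with no measured value in the rule, and all 42 were found among the 62754 gene identifiers of the count table. All 42 also passed the filter on low counts that left 18549 genes for testing. By role they comprised 3 core proteins of box C/D small nucleolar ribonucleoproteins (snoRNPs), 4 core proteins of box H/ACA snoRNPs, 4 nucleolar phosphoproteins and GTPases, 14 factors of small subunit assembly, 11 of large subunit assembly, and 6 subunits or factors of RNA polymerase I.

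Ribosomes are assembled mainly in the nucleolus. RNA polymerase I transcribes the ribosomal DNA into a long precursor, snoRNPs guide the ribose methylation and pseudouridylation of that precursor, and large sets of assembly factors fold, cut and export it with ribosomal proteins as the small and the large subunit. When assembly is disturbed, free ribosomal proteins bind MDM2, the ubiquitin ligase that targets p53, and p53 accumulates. The kinase GCN2, in turn, senses uncharged tRNA, phosphorylates the translation factor eIF2 and so raises translation of the transcription factor ATF4.

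Total RNA came from LNCaP, a human prostate cancer line, grown in phenol-free medium with serum. The 4 groups were p53 KO cells given 5 µM of the GCN2 inhibitor GCN2iB for 48 h, p53 KO cells given vehicle (DMSO) for 48 h, WT cells given 5 µM GCN2iB, and WT cells given vehicle, with 4 libraries each. The knockout was made with CRISPR, and the labels do not say whether it was a clone or a pool. They also do not say whether replicates were separate cultures, so p-values measure only the spread between these libraries. The study asked how p53 loss combined with GCN2 inhibition affects gene expression.

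Library totals ranged from 17418072 to 39915685 counts, and levels are given as CPM, counts divided by the TMM-scaled library size. CDKN1A, a p53 target, averaged 42.9 ± 5.97 in p53 KO GCN2iB, 37.5 ± 3.73 in p53 KO Vehicle, 464 ± 60.1 in WT GCN2iB and 275 ± 21.1 in WT Vehicle libraries, in CPM (SD, n = 4 each), and CHAC1, an ATF4 target, was lower with GCN2iB in both genotypes (log2 change -2.78 ± 0.13 SE in p53 KO cells and -3.25 ± 0.14 SE in WT cells). MDM2 was 2.27-fold lower in p53 KO than in WT cells with GCN2iB and 2.0-fold lower with vehicle, and ATF4 was 1.77-fold lower with GCN2iB in p53 KO cells and 2.33-fold lower in WT cells. The log2 change of MDM2 with GCN2iB was -0.0 ± 0.09 SE in p53 KO cells (edgeR, adjusted p = 0.985) and 0.18 ± 0.09 SE in WT cells (adjusted p = 0.148). That of CDKN1A was 0.20 ± 0.10 SE (adjusted p = 0.183) and 0.76 ± 0.10 SE (adjusted p = 7.61e-06). The luminal markers KLK3, KLK2, TMPRSS2, FOLH1, KRT8 and KRT18 passed the count filter, whereas KRT5, TP63, PTPRC and CD3E had at most 2 raw counts in any library and PECAM1, DCN and CD68 at most 8. Among the other non-luminal markers, KRT14 lay at 2.05 to 4.26 CPM, COL1A1 at 11.3 to 23.8 CPM and COL1A2 at 0.187 to 0.81 CPM. On the first principal component, which held 34.4% of the variance, the library WT GCN2iB 4 lay at -18.26, apart from the other WT GCN2iB libraries at -33.61 to -31.47. The library p53 KO GCN2iB 4 stood apart on the second component (16.4% of the variance), at -30.55, as did WT Vehicle 1 at 35.15. Members whose call changed without both replicate 4 libraries are named with the results on GCN2iB.

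With GCN2iB, 6 of the 7 snoRNP core proteins and a number of assembly factors rose by modest folds in both genotypes, and none of the 6 RNA polymerase I members was called higher with edgeR and TMM scaling. In p53 KO cells, 21 of 42 members were higher and 1 was lower with GCN2iB than with vehicle (edgeR's quasi-likelihood test, Benjamini-Hochberg adjusted p under 0.05 over all tested genes). Of all tested genes, 11.4% were called higher and 8.71% lower in that comparison. In WT cells, 16 members were higher and 4 were lower, beside 11.6% of all tested genes called higher and 13.6% called lower. Beside these shares, none called higher of 6 sets the RNA polymerase I members apart little. The median log2 change over the 42 members was 0.223 in p53 KO cells and 0.134 in WT cells, and over all tested genes it was -0.013 in p53 KO cells and -0.027 in WT cells. The largest rise among members was that of GAR1 in WT cells, 1.6-fold, and the largest fall was that of RRN3 in WT cells, 1.28-fold. These are levels in bulk RNA, in which fewer cells expressing a gene and less RNA per cell cannot be told apart.

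The 2 comparisons of GCN2iB with vehicle share no library, so their calls can be set against each other. They come from the same fit, with shared scaling, filter and estimate of spread, so the calls are not fully independent. BOP1, BYSL, DKC1, FBL, GAR1, LAS1L, NCL, NHP2, NOB1, NOP56, NOP58, RRP1, RRP9, RRS1 and UTP4 were called higher in both genotypes. These 15 make up 35.7% of the members, and 7.13% of all tested genes were called higher in both. RRN3 alone was called lower in both, and no member was called in opposite directions. A further 6 members were called in p53 KO cells only and 4 in WT cells only, and 16 were called in neither. When both replicate 4 libraries of GCN2iB were left out, 20 members were called higher and 1 lower in p53 KO cells, and 18 higher and 3 lower in WT cells. Calls gained in that fit were those of UTP15 in p53 KO cells (log2 change 0.23, adjusted p = 0.0331) and of NOP14 (0.19, adjusted p = 0.0194) and PPAN (0.31, adjusted p = 0.0213) in WT cells. Calls lost were those of BOP1 and PES1 in p53 KO cells and of LTV1 in WT cells. When libraries were scaled by their totals alone, the split of all genes in p53 KO cells turned to 1401 higher and 2672 lower, and 16 members were called higher and 2 lower. In WT cells the same scaling gave 1880 higher and 2959 lower over all genes, and 14 higher and 4 lower over members.

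**Figure D1:**
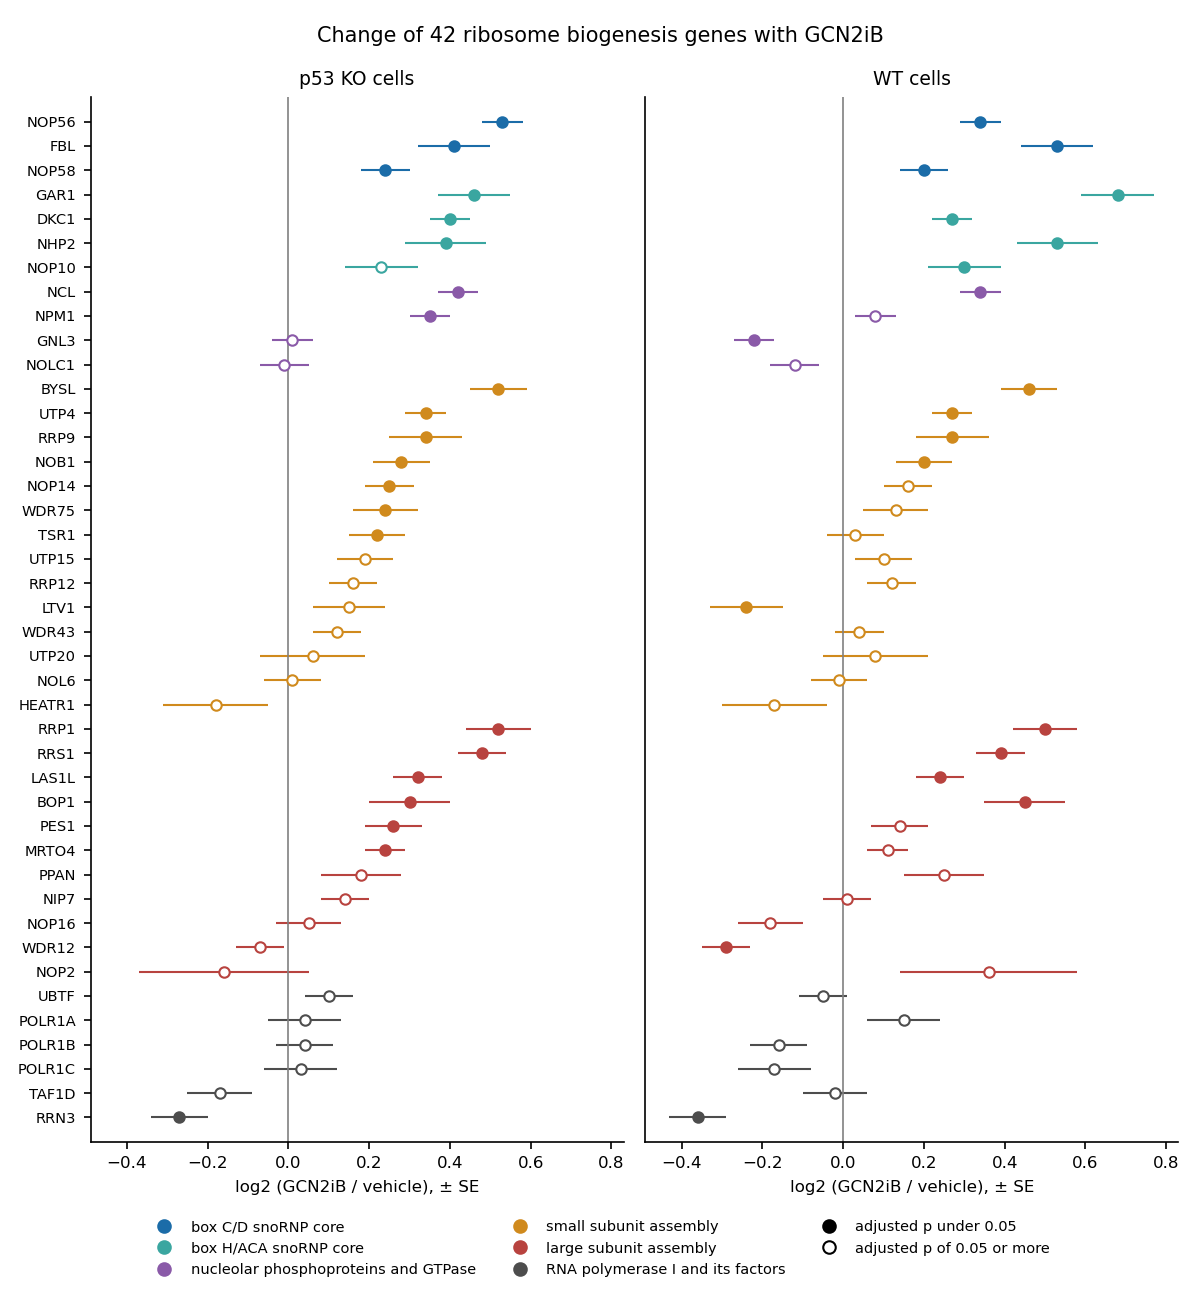
Log2 change with GCN2iB relative to vehicle (horizontal axis, points with SE bars) for each of the 42 members (vertical axis), grouped by role, in p53 KO cells (left) and WT cells (right). Filled points passed an adjusted p of 0.05; the 3 box C/D core genes are filled on the right of 0 in both panels, and RRN3 is the only member filled on the left of 0 in both.

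The E-box and the ETS-type motif occurred more often in the promoters of these genes than in promoters at large. RefSeq windows on GRCh38.p14, from 250 bases before the transcription start to 50 bases from the start on, were matched for 37 of the 42 members and 15843 protein-coding genes in all. The E-box CACGTG, a palindrome that basic helix-loop-helix factors bind, occurred in 13 of 37 member windows (35.1%) and in 8.88% of all windows. It was found in 4 of the 12 matched members called higher with GCN2iB in both genotypes (33.3%) and in 9 of the 25 other members (36.0%). The ETS-type motif CCGGAAG, read on both strands, occurred in 37.8% of member windows and 14.2% of all windows. The GC box GGGCGG on either strand occurred in 75.7% of member windows and 58.5% of all. For CCAAT on either strand the shares lay closer, at 43.2% of member windows and 36.4% of all. Of the 12 members called higher in both genotypes, 41.7% held the ETS-type motif, 91.7% the GC box and 58.3% CCAAT, beside 36.0%, 68.0% and 36.0% of the 25 others. These differences between members were not tested. The windows compared were not matched for base composition. Windows of all genes were also not limited to genes that passed the count filter, as all members did. Each motif was counted separately, whether or not it overlapped another, and a match is a description of the letters and not a bound site.

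Of the 14 E-boxes in member windows, 13 began between 20 bases before and 35 bases after the start. The outermost of the 13 lay 16 bases before and 35 bases after it, so these bounds follow the observed positions closely. The share of E-boxes in that stretch was not counted over all windows, so no background stands beside it. The stretches below run from 120 bases before the start to the 30 bases from it on, 5′ to 3′ on the gene's strand, with CACGTG in capitals. FBL, UTP4 and RRP9 are shown because they were called higher in both genotypes and hold the motif, NOP10 because it holds the motif and was called in WT cells only, and GAR1 and RRN3 because they had the largest rise and the largest fall and hold no E-box in the window. The E-box shown began 6 bases after the start in FBL, 16 before it in UTP4, 5 before it in RRP9 and 11 before it in NOP10. The window of NOP10 holds another E-box 170 bases before the start, outside the stretch shown and outside the bounds above.
FBL (chr19:39846350-39846499, minus strand): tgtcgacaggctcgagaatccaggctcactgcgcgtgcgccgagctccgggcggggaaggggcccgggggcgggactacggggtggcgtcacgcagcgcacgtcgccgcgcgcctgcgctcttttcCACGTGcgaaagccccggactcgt
UTP4 (chr16:69132529-69132678, plus strand): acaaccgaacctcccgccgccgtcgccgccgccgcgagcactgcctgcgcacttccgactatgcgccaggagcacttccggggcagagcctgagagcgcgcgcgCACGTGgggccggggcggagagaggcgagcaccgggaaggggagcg
RRP9 (chr3:51941875-51942024, minus strand): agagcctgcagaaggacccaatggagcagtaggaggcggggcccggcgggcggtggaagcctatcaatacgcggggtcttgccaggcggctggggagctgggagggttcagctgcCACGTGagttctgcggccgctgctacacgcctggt
NOP10 (chr15:34343107-34343256, minus strand): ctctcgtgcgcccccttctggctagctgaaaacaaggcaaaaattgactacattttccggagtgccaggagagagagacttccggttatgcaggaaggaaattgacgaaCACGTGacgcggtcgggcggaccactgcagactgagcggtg
GAR1 (chr4:109815390-109815539, plus strand): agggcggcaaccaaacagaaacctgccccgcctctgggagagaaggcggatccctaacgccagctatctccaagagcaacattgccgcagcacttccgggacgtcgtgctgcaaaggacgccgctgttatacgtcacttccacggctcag
RRN3 (chr16:15094306-15094455, minus strand): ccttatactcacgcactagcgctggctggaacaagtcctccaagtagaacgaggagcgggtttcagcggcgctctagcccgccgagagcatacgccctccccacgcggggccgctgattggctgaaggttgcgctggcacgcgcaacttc

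All 3 core proteins of box C/D snoRNPs, which carry out the ribose methylation of ribosomal RNA, were higher with GCN2iB in both genotypes. NOP56, a scaffold protein of the particle, had 385, 412, 395 and 409 CPM in p53 KO GCN2iB libraries, against 262, 284, 279.6 and 287 CPM in p53 KO Vehicle libraries. In WT cells it had 365, 346, 335 and 345 CPM with GCN2iB and 271, 271, 271 and 284 CPM with vehicle. Every GCN2iB library thus lay above every vehicle library of its genotype. NOP56 was 1.44-fold higher (log2 change 0.53 ± 0.05 SE, adjusted p = 2.35e-07) in p53 KO cells and 1.27-fold higher (log2 change 0.34 ± 0.05 SE, adjusted p = 4.41e-05) in WT cells.

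FBL, the methyltransferase itself, showed 362, 379, 386 and 508 CPM in p53 KO GCN2iB libraries and 296, 308, 313 and 316 CPM in p53 KO Vehicle libraries. WT GCN2iB libraries held 421, 468, 517 and 552 CPM of FBL and WT Vehicle libraries 312, 338, 342 and 365 CPM. The groups did not overlap within a genotype, although the spread among GCN2iB libraries was wide and the library p53 KO GCN2iB 4 stood highest in its group. With GCN2iB, FBL was 1.33-fold higher (log2 change 0.41 ± 0.09 SE, adjusted p = 0.00266) in p53 KO cells and 1.44-fold higher (log2 change 0.53 ± 0.09 SE, adjusted p = 0.000198) in WT cells. Without both replicate 4 libraries its log2 change was 0.29 (adjusted p = 0.00371) in p53 KO cells and 0.47 (adjusted p = 1.68e-05) in WT cells.

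NOP58, the second scaffold protein, changed least of the 3. Its levels were 126, 126, 135 and 119 CPM in p53 KO GCN2iB libraries and 114, 107, 97.4 and 109 CPM in p53 KO Vehicle libraries. In WT libraries they were 122, 130, 134 and 137 CPM with GCN2iB and 119, 115, 113 and 109.6 CPM with vehicle. The groups did not overlap, and NOP58 was 1.18-fold higher (log2 change 0.24 ± 0.06 SE, adjusted p = 0.0071) in p53 KO cells and 1.15-fold higher (log2 change 0.20 ± 0.06 SE, adjusted p = 0.0202) in WT cells. Scaled by library totals alone, NOP58 missed the threshold in both genotypes.

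The 4 core proteins of box H/ACA snoRNPs, which convert uridine to pseudouridine and also hold telomerase RNA, were all called higher in WT cells, and 3 of the 4 in p53 KO cells. GAR1 rose most. It had 71.5, 74.5, 76.1 and 98.6 CPM in p53 KO GCN2iB libraries, against 62.2, 55.8, 59.9 and 55.8 CPM in p53 KO Vehicle libraries, and 78.5, 88.0, 95.0 and 96.4 CPM in WT GCN2iB libraries, against 56.4, 54.5, 52.2 and 60.8 CPM in WT Vehicle libraries. No GCN2iB library reached down to a vehicle library of its genotype. GAR1 was 1.37-fold higher (log2 change 0.46 ± 0.09 SE, adjusted p = 0.000673) in p53 KO cells and 1.6-fold higher (log2 change 0.68 ± 0.09 SE, adjusted p = 7.51e-06) in WT cells. Without both replicate 4 libraries its log2 change was 0.34 in p53 KO cells, below that of DKC1 at 0.40, and 0.64 in WT cells. With GC and length trends removed the values in p53 KO cells were 0.34 for GAR1 and 0.39 for DKC1.

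DKC1, the pseudouridine synthase, rose in both genotypes. Its levels were 257, 277, 270.3 and 266 CPM in p53 KO GCN2iB libraries and 206, 198, 206 and 204 CPM in p53 KO Vehicle libraries. In WT cells they were 246, 233, 238 and 241 CPM with GCN2iB and 209.8, 200.2, 198 and 188 CPM with vehicle. All GCN2iB libraries lay above all vehicle libraries. DKC1 was 1.32-fold higher (log2 change 0.40 ± 0.05 SE, adjusted p = 9.29e-06) in p53 KO cells and 1.2-fold higher (log2 change 0.27 ± 0.05 SE, adjusted p = 0.00055) in WT cells.

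NHP2 had 110.2, 118, 106 and 148 CPM in p53 KO GCN2iB libraries and 81.5, 96.3, 89.2 and 101 CPM in p53 KO Vehicle libraries, and 122, 144, 151 and 162 CPM in WT GCN2iB libraries against 84.5, 101, 107 and 109 CPM in WT Vehicle libraries. The groups did not overlap, and NHP2 was 1.31-fold higher (log2 change 0.39 ± 0.10 SE, adjusted p = 0.0105) in p53 KO cells and 1.44-fold higher (log2 change 0.53 ± 0.10 SE, adjusted p = 0.000825) in WT cells. Some 27.4% of its exon length is shared with the antisense gene RMND5B, and the strand setting of the counting is not given in the sources used here. NOP10, the smallest of these proteins, had 99.6, 103, 119.6 and 116 CPM in WT GCN2iB libraries, each above the WT Vehicle libraries at 79.9, 88.5, 89.8 and 99.2 CPM. It was 1.23-fold higher (log2 change 0.30 ± 0.09 SE, adjusted p = 0.0241) in WT cells, a call that was lost without WT Vehicle 1, WT GCN2iB 3 or WT GCN2iB 4 (highest adjusted p = 0.0676). In p53 KO cells, where the groups overlapped, the log2 change of NOP10 was 0.23 ± 0.09 (adjusted p = 0.091).

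**Figure D2:**
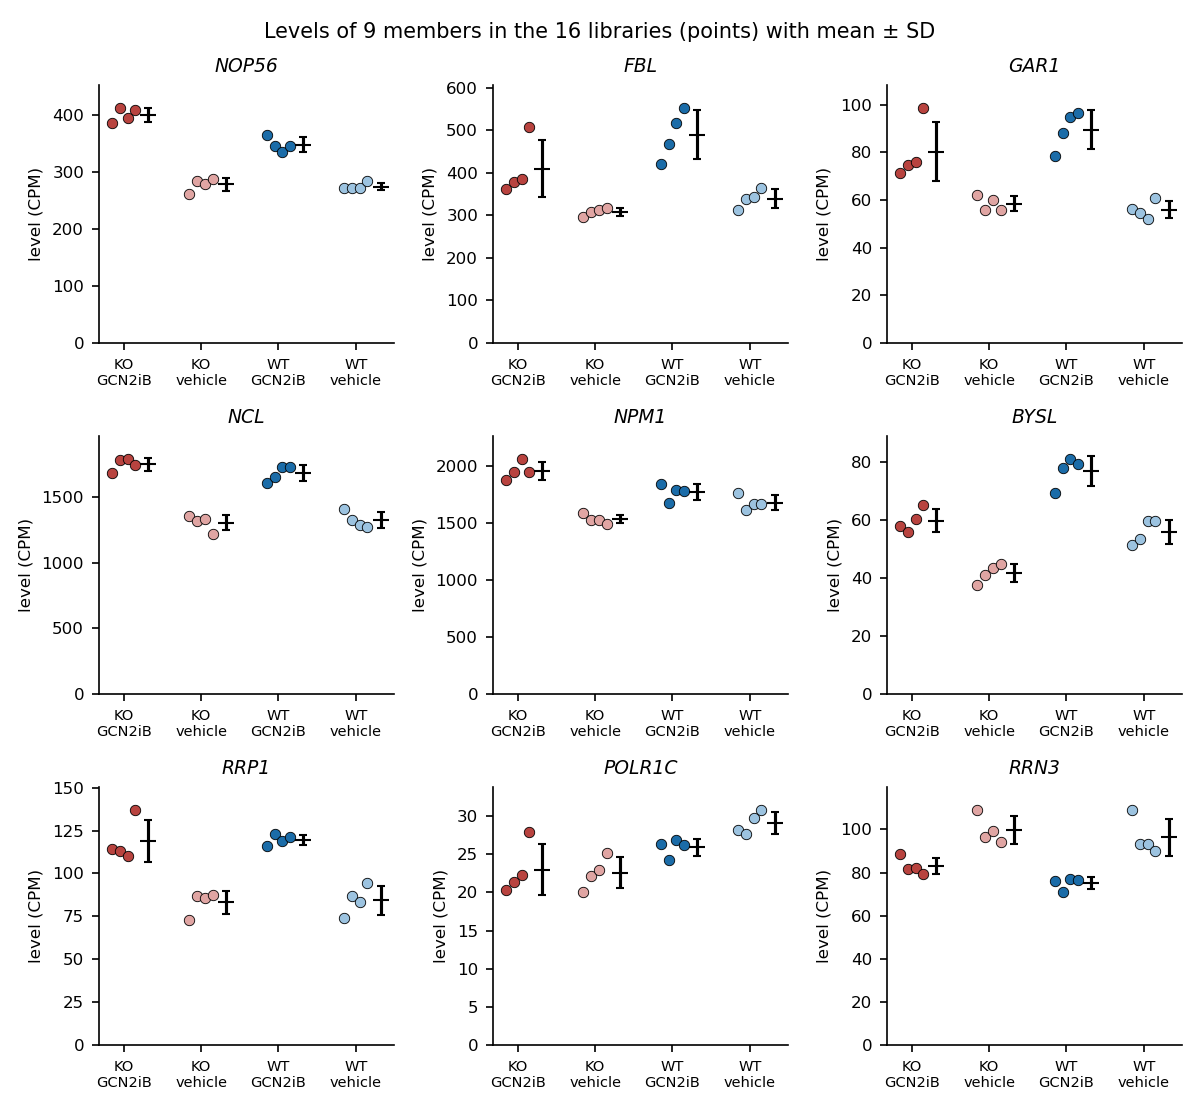
Levels in CPM (vertical axes, from 0) of 9 members in the 4 groups of 4 libraries (points, left to right in order of replicate number), with the group mean and SD beside them. NOP56, FBL, GAR1, NCL, BYSL and RRP1 lie higher with GCN2iB than with vehicle in both genotypes, RRN3 lies lower in both, and POLR1C does not separate by treatment in p53 KO cells.

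The 4 nucleolar phosphoproteins and GTPases did not move together. NCL (nucleolin), an abundant RNA-binding protein of the nucleolus, rose in both genotypes. It had 1686, 1785, 1792 and 1746 CPM in p53 KO GCN2iB libraries and 1355, 1316, 1335 and 1222 CPM in p53 KO Vehicle libraries. WT libraries held 1609, 1658, 1733 and 1733 CPM with GCN2iB and 1411, 1330.2, 1289.6 and 1273 CPM with vehicle, without overlap. NCL was 1.34-fold higher (log2 change 0.42 ± 0.05 SE, adjusted p = 7.45e-06) in p53 KO cells and 1.27-fold higher (log2 change 0.34 ± 0.05 SE, adjusted p = 6.96e-05) in WT cells.

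NPM1 (nucleophosmin), which organises the outer layer of the nucleolus, had 1873, 1945, 2059.9 and 1942 CPM in p53 KO GCN2iB libraries, all above the p53 KO Vehicle libraries at 1588, 1526, 1529 and 1494 CPM. WT GCN2iB libraries held 1845, 1670.5, 1787 and 1780.1 CPM and overlapped the WT Vehicle libraries at 1763, 1612, 1668 and 1669.6 CPM. NPM1 was 1.27-fold higher (log2 change 0.35 ± 0.05 SE, adjusted p = 5.5e-05) in p53 KO cells, whereas its log2 change in WT cells was 0.08 ± 0.05 (adjusted p = 0.305). The 2 responses differed by 0.27 ± 0.07 on the log2 scale, a difference that did not pass the test (adjusted p = 0.322). The annotation names 49 NPM1 pseudogenes, so how the counting assigned reads shared with them bears on its level.

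GNL3 (nucleostemin), a GTPase of large subunit assembly, was the only one of the 4 called lower. WT GCN2iB libraries held 268, 252, 258 and 258 CPM, all below the WT Vehicle libraries at 319.5, 292, 302 and 297 CPM, and GNL3 was 1.17-fold lower (log2 change -0.22 ± 0.05 SE, adjusted p = 0.00288). In p53 KO cells it had 285, 287, 304 and 282 CPM with GCN2iB and 302, 284, 284 and 278 CPM with vehicle. Those groups overlapped, and the log2 change was 0.01 ± 0.05 (adjusted p = 0.899). NOLC1, a chaperone of snoRNPs, overlapped between treatments in both genotypes, with log2 changes of -0.01 ± 0.06 (adjusted p = 0.951) in p53 KO cells and -0.12 ± 0.06 (adjusted p = 0.156) in WT cells.

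Of the 14 factors of small subunit assembly, 7 were called higher with GCN2iB in p53 KO cells and none lower, and in WT cells 4 were called higher and 1 lower. None of the 14 was lower in p53 KO cells at an unadjusted p under 0.05 either, or with DESeq2 or limma voom. Among all tested genes, edgeR called 8.71% lower in p53 KO cells and 13.6% lower in WT cells. Next to these shares, none or 1 called lower of 14 sets the class apart little. BYSL (bystin), which acts late in small subunit assembly, rose most in both genotypes. It had 58.0, 55.6, 60.2 and 65.2 CPM in p53 KO GCN2iB libraries and 37.6, 40.8, 43.5 and 44.8 CPM in p53 KO Vehicle libraries. In WT cells the levels were 69.2, 77.8, 80.9 and 79.1 CPM with GCN2iB and 51.3, 53.5, 59.4 and 59.4 CPM with vehicle. The groups did not overlap within a genotype, and BYSL was 1.43-fold higher (log2 change 0.52 ± 0.07 SE, adjusted p = 2.56e-05) in p53 KO cells and 1.37-fold higher (log2 change 0.46 ± 0.07 SE, adjusted p = 8.44e-05) in WT cells.

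UTP4, of the early complex that couples rDNA transcription to precursor processing, had 113, 110.1, 114 and 105 CPM in p53 KO GCN2iB libraries and 85.3, 87.4, 88.8 and 89.1 CPM in p53 KO Vehicle libraries. With GCN2iB the WT libraries held 105, 101, 98.6 and 101 CPM, and with vehicle 85.0, 83.7, 85.9 and 82.2 CPM. All GCN2iB libraries were above all vehicle libraries. UTP4 was 1.26-fold higher (log2 change 0.34 ± 0.05 SE, adjusted p = 6.64e-05) in p53 KO cells and 1.2-fold higher (log2 change 0.27 ± 0.05 SE, adjusted p = 0.000598) in WT cells. Of the other measured members of that early complex, UTP15 had log2 changes of 0.19 ± 0.07 (adjusted p = 0.0695) in p53 KO cells and 0.10 ± 0.07 (adjusted p = 0.328) in WT cells, WDR43 0.12 ± 0.06 (adjusted p = 0.191) and 0.04 ± 0.06 (adjusted p = 0.715), and HEATR1 -0.18 ± 0.13 (adjusted p = 0.392) and -0.17 ± 0.13 (adjusted p = 0.395). UTP15 was called higher in p53 KO cells under 6 of 26 alternatives, and with GC and length trends removed UTP15 and WDR43 were called higher in both genotypes. The log2 change of UTP15 was then 0.23 in p53 KO cells and 0.21 in WT cells, and that of WDR43 0.13 in each. WDR75 was called in p53 KO cells, at 0.24 ± 0.08 (adjusted p = 0.0259), with overlapping groups. That call was lost in 8 of 26 alternatives, among them the fits without p53 KO Vehicle 2, 3 or 4 and without p53 KO GCN2iB 1, 2 or 3 (highest adjusted p over all alternatives 0.139). With GC and length trends removed, WDR75 was called higher in WT cells as well (log2 change 0.24, adjusted p = 0.000189).

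RRP9, the protein specific to the U3 snoRNP that guides the early cuts, had 118, 119, 115 and 150.5 CPM in p53 KO GCN2iB libraries and 87.9, 105, 96.3 and 109.5 CPM in p53 KO Vehicle libraries. WT GCN2iB libraries held 117, 123, 121 and 123 CPM and WT Vehicle libraries 85.9, 104, 104 and 109 CPM. The groups did not overlap. RRP9 was 1.26-fold higher (log2 change 0.34 ± 0.09 SE, adjusted p = 0.00709) in p53 KO cells and 1.2-fold higher (log2 change 0.27 ± 0.09 SE, adjusted p = 0.0249) in WT cells, and the call in WT cells was lost without WT Vehicle 1 (adjusted p = 0.073). With GC and length trends removed that change was 0.13 (adjusted p = 0.00756).

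NOB1, the endonuclease of the final cut in small subunit RNA, had 65.2, 69.9, 63.4 and 71.3 CPM in p53 KO GCN2iB libraries, above the p53 KO Vehicle libraries at 48.9, 59.9, 53.8 and 59.6 CPM. In WT cells it had 70.0, 63.0, 65.9 and 64.5 CPM with GCN2iB and 53.9, 56.7, 55.9 and 62.2 CPM with vehicle, again without overlap. NOB1 was 1.22-fold higher (log2 change 0.28 ± 0.07 SE, adjusted p = 0.0061) in p53 KO cells and 1.15-fold higher (log2 change 0.20 ± 0.07 SE, adjusted p = 0.0373) in WT cells, where the call was lost without WT Vehicle 1, 2 or 3, without WT GCN2iB 1 or 3, and with library totals as the scaling (highest adjusted p = 0.0813). NOP14, a scaffold of the early small subunit precursor, had 111, 114, 113 and 97.4 CPM in p53 KO GCN2iB libraries and 86.3, 94.2, 94.6 and 89.6 CPM in p53 KO Vehicle libraries, with no overlap. It was 1.19-fold higher (log2 change 0.25 ± 0.06 SE, adjusted p = 0.0068) there, a call lost with library totals as the scaling (adjusted p = 0.0573), and its log2 change in WT cells was 0.16 ± 0.06 (adjusted p = 0.0807). In WT cells NOP14 was called higher under some alternatives, among them DESeq2 (0.17, adjusted p = 0.0476) and a replicate block (0.15, adjusted p = 0.0266).

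LTV1, a late factor of small subunit assembly, was the only one of the 14 called lower, in WT cells. Its levels there were 21.3, 15.6, 15.8 and 16.7 CPM with GCN2iB and 20.9, 18.9, 20.3 and 22.1 CPM with vehicle, and the groups overlapped through WT GCN2iB 1. LTV1 was 1.18-fold lower (log2 change -0.24 ± 0.09 SE, adjusted p = 0.0459), a call lost in 19 of 26 alternatives, 13 of them fits that left out 1 library (highest adjusted p = 0.186). Without both replicate 4 libraries it was -0.22 (adjusted p = 0.0961), and 34.8% of its exon length is shared with other genes on the same strand. TSR1, a GTPase-like factor of late assembly, was called in p53 KO cells at 0.22 ± 0.07 (adjusted p = 0.0256), with overlapping groups. Its call was lost without p53 KO Vehicle 3 or 4 and without p53 KO GCN2iB 1, 2 or 3 (highest adjusted p over all alternatives 0.158). UTP20, NOL6 and RRP12 were called in neither genotype, with log2 changes of 0.06 ± 0.13 (adjusted p = 0.783), 0.01 ± 0.07 (adjusted p = 0.92) and 0.16 ± 0.06 (adjusted p = 0.076) in p53 KO cells and 0.08 ± 0.13 (adjusted p = 0.702), -0.01 ± 0.07 (adjusted p = 0.93) and 0.12 ± 0.06 (adjusted p = 0.166) in WT cells. With GC and length trends removed, RRP12 was called higher in p53 KO cells (0.19, adjusted p = 0.000969) and in WT cells (0.12, adjusted p = 0.0278). UTP20 was then called higher in WT cells (0.18, adjusted p = 0.0461).

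Of the 11 factors of large subunit assembly, 6 were called higher with GCN2iB in p53 KO cells and none lower, and in WT cells 4 were called higher and 1 lower. DESeq2, limma voom and an unadjusted p under 0.05 likewise gave none lower in p53 KO cells. The shares were 54.5% called higher in p53 KO cells, and 36.4% higher and 9.09% lower in WT cells. Beside the shares of all tested genes given above, none or 1 called lower of 11 sets the class apart little. RRP1, which acts in the processing of the large subunit RNA, had 114, 113, 110.2 and 137 CPM in p53 KO GCN2iB libraries and 72.7, 86.6, 85.9 and 87.2 CPM in p53 KO Vehicle libraries. The WT libraries held 116, 123, 119 and 121 CPM with GCN2iB and 73.9, 86.8, 83.2 and 94.2 CPM with vehicle. Treatments were fully separated in each genotype. RRP1 was 1.43-fold higher (log2 change 0.52 ± 0.08 SE, adjusted p = 6.2e-05) in p53 KO cells and 1.41-fold higher (log2 change 0.50 ± 0.08 SE, adjusted p = 7.29e-05) in WT cells.

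RRS1, which brings ribosomal proteins into the large subunit precursor, had 83.0, 85.9, 78.7 and 90.8 CPM in p53 KO GCN2iB libraries against 57.7, 65.7, 60.2 and 60.0 CPM in p53 KO Vehicle libraries. It had 78.6, 75.5, 80.5 and 79.7 CPM in WT GCN2iB libraries against 56.1, 62.5, 58.0 and 62.6 CPM in WT Vehicle libraries. Groups did not overlap, and RRS1 was 1.39-fold higher (log2 change 0.48 ± 0.06 SE, adjusted p = 8.97e-06) in p53 KO cells and 1.31-fold higher (log2 change 0.39 ± 0.06 SE, adjusted p = 7.48e-05) in WT cells. LAS1L, the endonuclease that cuts the internal spacer before large subunit RNA, had 123, 128, 117 and 129 CPM in p53 KO GCN2iB libraries and 93.8, 101, 101 and 102 CPM in p53 KO Vehicle libraries, without overlap, and was 1.25-fold higher (log2 change 0.32 ± 0.06 SE, adjusted p = 0.000311). In WT cells LAS1L averaged 124 ± 5.16 CPM with GCN2iB and 105 ± 3.41 CPM with vehicle (SD, n = 4 each) and was 1.18-fold higher (log2 change 0.24 ± 0.06 SE, adjusted p = 0.00282). MRTO4, an assembly factor related to a ribosomal stalk protein, had 67.6, 66.7, 64.8 and 72.9 CPM in p53 KO GCN2iB libraries, above all p53 KO Vehicle libraries at 58.3, 58.8, 56.0 and 57.4 CPM. It was 1.18-fold higher (log2 change 0.24 ± 0.05 SE, adjusted p = 0.00274) there, with a log2 change of 0.11 ± 0.05 (adjusted p = 0.129) in WT cells.

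BOP1, PES1 and WDR12 form 1 complex, and in WT cells the transcripts of BOP1 and WDR12 were called in opposite directions. BOP1 had 222, 251, 240.4 and 244 CPM in WT GCN2iB libraries, all above the WT Vehicle libraries at 156, 181, 176 and 186 CPM, and was 1.37-fold higher (log2 change 0.45 ± 0.10 SE, adjusted p = 0.00138). In p53 KO cells it had 182, 197, 172 and 237 CPM with GCN2iB and 133, 163, 156 and 188 CPM with vehicle. These groups overlapped, and the call (0.30 ± 0.10 (adjusted p = 0.0274)) was lost without both replicate 4 libraries, at 0.20 (adjusted p = 0.117), and also without p53 KO Vehicle 1, 2 or 3 or p53 KO GCN2iB 2 or 4 alone. PES1 was called in p53 KO cells at 0.26 ± 0.07 (adjusted p = 0.0118), with overlapping groups, and missed the threshold without both replicate 4 libraries, at 0.19 (adjusted p = 0.0522). In WT cells the log2 change of PES1 was 0.14 (adjusted p = 0.16). It was called higher there with a replicate block (0.14, adjusted p = 0.0252), with GC and length trends removed (0.10, adjusted p = 0.0298) and without WT Vehicle 4 (0.20, adjusted p = 0.0489). WDR12, by contrast, had 53.3, 46.6, 49.8 and 52.7 CPM in WT GCN2iB libraries, all below the WT Vehicle libraries at 64.5, 59.3, 63.8 and 60.7 CPM. It was 1.23-fold lower (log2 change -0.29 ± 0.06 SE, adjusted p = 0.000785) in WT cells, and its log2 change in p53 KO cells was -0.07 ± 0.06 (adjusted p = 0.408).

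NOP16, NIP7, PPAN and NOP2 were called in neither genotype under edgeR and TMM scaling. NOP16 had log2 changes of 0.05 ± 0.08 (adjusted p = 0.748) in p53 KO cells and -0.18 ± 0.08 (adjusted p = 0.126) in WT cells, and NIP7 0.14 ± 0.06 (adjusted p = 0.0953) and 0.01 ± 0.06 (adjusted p = 0.923). PPAN had 0.18 ± 0.10 (adjusted p = 0.216) and 0.25 ± 0.10 (adjusted p = 0.0662), and 59.8% of its exon length is shared with same-strand genes that include its readthrough with P2RY11. NOP2, an RNA methyltransferase, was counted at only 0.81 to 1.82 CPM over all libraries, and 54.4% of its exon length is shared with a same-strand gene (AC006064.6). How reads of that shared stretch were assigned bears on its level. Among other alternatives, PPAN was called higher in WT cells by DESeq2 (0.27, adjusted p = 0.0454) and with a replicate block (0.26, adjusted p = 0.0324). With GC and length trends removed, NOP16 was called lower in WT cells (-0.27, adjusted p = 0.01) and NIP7 higher in p53 KO cells (0.16, adjusted p = 0.00918).

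The RNA polymerase I members were not called higher with GCN2iB unless the model was changed, and whether they differed from the assembly factors was not tested. None of the 6 was higher with GCN2iB in either genotype by edgeR, DESeq2 or limma voom, even at an unadjusted p under 0.05. Of all tested genes, edgeR called 11.4% higher in p53 KO cells and 11.6% in WT cells at an adjusted p under 0.05. Beside these shares, none called higher of 6 sets the class apart little. With trends against GC content and transcript length removed, POLR1A was called higher in p53 KO cells (log2 change 0.15, adjusted p = 0.0123) and in WT cells (0.21, adjusted p = 0.000961), and UBTF in p53 KO cells (0.14, adjusted p = 0.00627). With a replicate block, POLR1A was called higher in WT cells (0.16, adjusted p = 0.0178). Summed over the 6 genes, the level was 478 to 519 CPM in p53 KO GCN2iB libraries, 489 to 525 CPM in p53 KO Vehicle libraries, 505 to 525 CPM in WT GCN2iB libraries and 512 to 557 CPM in WT Vehicle libraries, with overlap between treatments in both genotypes. The sum over all 42 members, by comparison, was 8497 to 8886 CPM in p53 KO GCN2iB libraries and 7088 to 7273 CPM in p53 KO Vehicle libraries. In WT cells it was 8297 to 8579 CPM with GCN2iB and 7430.3 to 7618 CPM with vehicle.

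RRN3, the initiation factor that makes RNA polymerase I competent to start, was called lower in both genotypes. It had 88.4, 81.7, 82.2 and 79.5 CPM in p53 KO GCN2iB libraries, all below the p53 KO Vehicle libraries at 109, 96.7, 99.3 and 94.2 CPM. WT GCN2iB libraries held 75.9, 71.0, 77.2 and 76.6 CPM, and WT Vehicle libraries 109, 93.1, 93.4 and 89.8 CPM, again without overlap. RRN3 was 1.2-fold lower (log2 change -0.27 ± 0.07 SE, adjusted p = 0.00598) in p53 KO cells and 1.28-fold lower (log2 change -0.36 ± 0.07 SE, adjusted p = 0.000422) in WT cells, and it was called under all 26 alternatives in both. The annotation names 5 RRN3 pseudogenes.

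No other RNA polymerase I member was called with GCN2iB under edgeR and TMM scaling. POLR1A, the largest subunit, had log2 changes of 0.04 ± 0.09 (adjusted p = 0.819) in p53 KO cells and 0.15 ± 0.09 (adjusted p = 0.215) in WT cells, and POLR1B, the next largest, 0.04 ± 0.07 (adjusted p = 0.764) and -0.16 ± 0.07 (adjusted p = 0.102). POLR1C, a subunit shared with RNA polymerase III, had 0.03 ± 0.09 (adjusted p = 0.875) and -0.17 ± 0.09 (adjusted p = 0.169). UBTF, which binds rDNA and keeps its chromatin open, had 0.10 ± 0.06 (adjusted p = 0.221) and -0.05 ± 0.06 (adjusted p = 0.577), and TAF1D, of the promoter selectivity complex, -0.17 ± 0.08 (adjusted p = 0.134) and -0.02 ± 0.08 (adjusted p = 0.907). Apart from the calls of POLR1A and UBTF given above, POLR1B was called lower in WT cells with a replicate block (-0.17, adjusted p = 0.0209) and without p53 KO GCN2iB 4 (-0.16, adjusted p = 0.0468), and TAF1D was called lower in p53 KO cells with library totals as the scaling (-0.24, adjusted p = 0.0317).

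Between genotypes the members differed less. Given vehicle, 1 member was higher in p53 KO cells (RRP12) and 4 were lower (WDR43, BYSL, POLR1B and POLR1C), beside 9.63% of all tested genes called higher and 12.1% called lower. The median log2 difference over the members was -0.052, against 0.006 over all tested genes. Scaled by library totals, 2 members were higher and 4 lower, while all genes split into 2467 higher and 1593 lower, against 1787 higher and 2238 lower with TMM scaling. Given GCN2iB, 6 members were higher in p53 KO cells (NOP56, DKC1, NOLC1, GNL3, RRP12 and LTV1) and 4 were lower (FBL, WDR43, BYSL and BOP1), beside 12.7% called higher and 11.2% called lower of all tested genes. The median was 0.043 over the members and 0.025 over all tested genes. In the fit with TMM scaling these shares lie near or below the background, so they set the members apart little there. Given GCN2iB, the counts of members were not stable over other fits, which are described further below. With GC and length trends removed, more members were called in both directions, as were more of all genes.

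BYSL, called lower in p53 KO cells under both treatments, was 1.29-fold lower (log2 change -0.36 ± 0.07 SE, adjusted p = 0.000769) with GCN2iB and 1.34-fold lower (log2 change -0.43 ± 0.07 SE, adjusted p = 0.000147) with vehicle, at the levels given above. WDR43, of the early small subunit complex, had 107, 110.2, 112 and 99.6 CPM in p53 KO GCN2iB libraries and 123, 121, 129 and 121 CPM in WT GCN2iB libraries. With vehicle it had 107, 98.2, 97.2 and 93.3 CPM in p53 KO libraries and 129, 120.3, 123 and 109.7 CPM in WT libraries. The genotypes did not overlap under either treatment, and WDR43 was 1.15-fold lower (log2 change -0.20 ± 0.06 SE, adjusted p = 0.0204) in p53 KO cells with GCN2iB and 1.22-fold lower (log2 change -0.28 ± 0.06 SE, adjusted p = 0.0017) with vehicle. Without both replicate 4 libraries the GCN2iB difference of WDR43 was -0.18 (adjusted p = 0.06).

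RRP12, an export factor of small subunit assembly, was the one member called higher in p53 KO cells under both treatments. With GCN2iB it had 135, 137, 132 and 144 CPM in p53 KO libraries and 120.4, 109, 104 and 113 CPM in WT libraries. With vehicle it had 110, 125, 128 and 127 CPM in p53 KO libraries and 96.0, 107, 102 and 106 CPM in WT libraries. The genotypes did not overlap. RRP12 was 1.22-fold higher (log2 change 0.29 ± 0.06 SE, adjusted p = 0.00143) in p53 KO cells with GCN2iB and 1.19-fold higher (log2 change 0.25 ± 0.06 SE, adjusted p = 0.00466) with vehicle.

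Of the RNA polymerase I members, POLR1B and POLR1C were called between genotypes given vehicle. POLR1B had 65.1, 61.7, 61.8 and 62.5 CPM in p53 KO Vehicle libraries, all below the WT Vehicle libraries at 86.3, 78.5, 74.7 and 74.7 CPM, and was 1.25-fold lower (log2 change -0.32 ± 0.07 SE, adjusted p = 0.00227). POLR1C had 20.1, 22.2, 22.9 and 25.1 CPM in p53 KO Vehicle libraries, again all below the WT Vehicle libraries at 28.2, 27.7, 29.7 and 30.8 CPM, and was 1.29-fold lower (log2 change -0.37 ± 0.09 SE, adjusted p = 0.00332). With GCN2iB the log2 differences were -0.12 ± 0.07 (adjusted p = 0.254) for POLR1B and -0.18 ± 0.09 (adjusted p = 0.156) for POLR1C. POLR1C was called lower there with a replicate block (-0.18, adjusted p = 0.0429), without both replicate 4 libraries (-0.28, adjusted p = 0.0163), without p53 KO GCN2iB 4 alone (-0.29, adjusted p = 0.00727), and with GC and length trends removed (-0.23, adjusted p = 0.0227), as was POLR1B in the last (-0.14, adjusted p = 0.0298). POLR1A, at -0.22 ± 0.09 (adjusted p = 0.0719) with GCN2iB, was called lower under 6 of 26 alternatives, and UBTF, at 0.10 ± 0.06 (adjusted p = 0.241), was called higher with the trends removed (0.15, adjusted p = 0.00526). About 18.2% of the POLR1C exon length is shared with antisense genes.

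**Figure D3:**
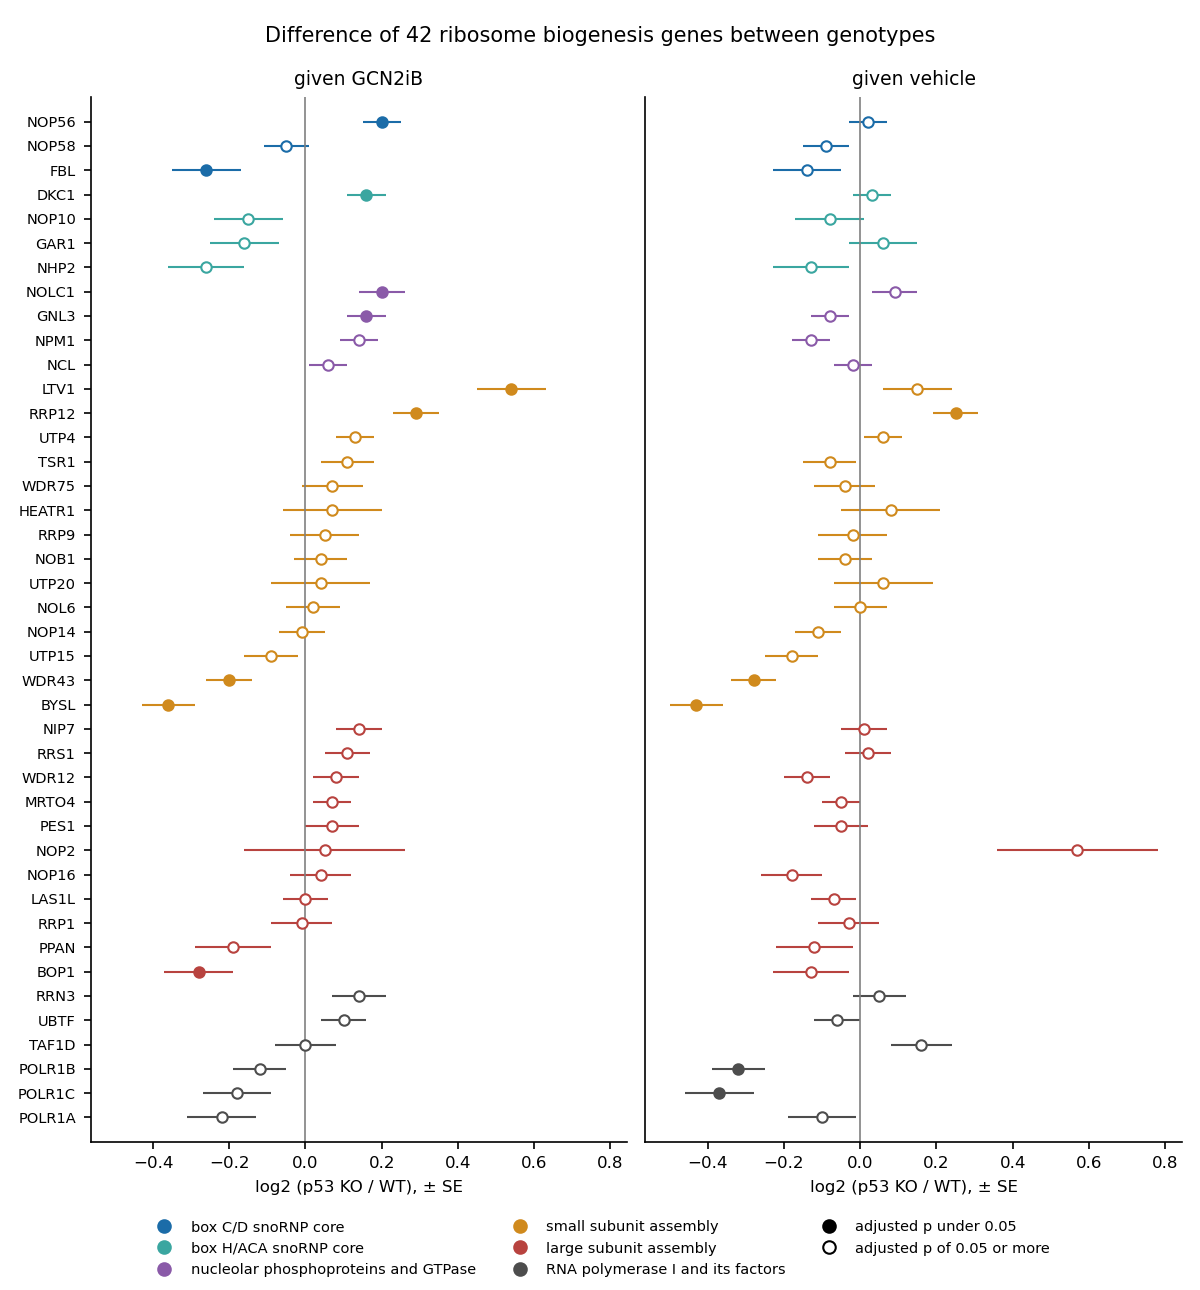
Log2 difference between p53 KO and WT cells (horizontal axis, points with SE bars) for each of the 42 members (vertical axis), grouped by role, given GCN2iB (left) and given vehicle (right). Filled points passed an adjusted p of 0.05; BYSL and WDR43 are filled on the left of 0 and RRP12 on the right of 0 in both panels.

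Among the members called between genotypes only with GCN2iB, LTV1 differed most. It had 25.1, 23.7, 27.2 and 25.4 CPM in p53 KO GCN2iB libraries, all above the WT GCN2iB libraries at 21.3, 15.6, 15.8 and 16.7 CPM, and was 1.46-fold higher (log2 change 0.54 ± 0.09 SE, adjusted p = 7.29e-05). With GCN2iB, NOP56 was 1.15-fold higher (log2 change 0.20 ± 0.05 SE, adjusted p = 0.0061) in p53 KO cells and DKC1 1.12-fold higher (log2 change 0.16 ± 0.05 SE, adjusted p = 0.0247), both without overlap between genotypes at the levels given above. NOLC1 had 469, 475, 475 and 408 CPM in p53 KO GCN2iB libraries and 416, 387, 395 and 393 CPM in WT GCN2iB libraries, which overlapped through p53 KO GCN2iB 4. It was 1.15-fold higher (log2 change 0.20 ± 0.06 SE, adjusted p = 0.0185). GNL3 did not overlap between genotypes and was 1.12-fold higher (log2 change 0.16 ± 0.05 SE, adjusted p = 0.028), but with GC and length trends removed it was 0.06 (adjusted p = 0.175). FBL and BOP1 were lower in p53 KO cells with GCN2iB, with log2 differences of -0.26 ± 0.09 (adjusted p = 0.04) and -0.28 ± 0.09 (adjusted p = 0.034), and their genotypes overlapped through p53 KO GCN2iB 4. With the trends removed the difference of BOP1 was -0.13 (adjusted p = 0.0117).

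Of these 10 calls given GCN2iB, those of LTV1, RRP12 and BYSL were kept under all 26 alternatives, and without both replicate 4 libraries 6 members were called higher and 8 lower. That fit added GAR1 (log2 difference -0.24, adjusted p = 0.0241), NHP2 (-0.32, adjusted p = 0.0145), NOP10 (-0.25, adjusted p = 0.0294), POLR1C (-0.28, adjusted p = 0.0163) and PPAN (-0.32, adjusted p = 0.0275), and lost WDR43 (-0.18 (adjusted p = 0.06)). NHP2 was called lower under further alternatives, among them DESeq2 (-0.28, adjusted p = 0.0409) and a replicate block (-0.26, adjusted p = 0.000922). Fits that left out 1 library lost the call of NOP56 once (WT GCN2iB 3), that of WDR43 once (p53 KO GCN2iB 4), and those of DKC1 in 13, GNL3 in 12, NOLC1 in 6, FBL in 5 and BOP1 in 5 of 16 fits. Without WT GCN2iB 3, only 2 members were called higher and 2 lower, and without p53 KO GCN2iB 4, 7 were called lower. Whether the difference between genotypes itself changed with treatment was asked by the interaction, the GCN2iB response in p53 KO cells minus that in WT cells. For the interaction, none of the 42 members was called by edgeR, by DESeq2 or by limma voom at an adjusted p under 0.05, and 1 of all 18549 tested genes was (0.00539%, in the lower direction). At an unadjusted p under 0.05, the same 5 members passed with each of the 3 tools, GNL3, LTV1, NOP56, NPM1 and WDR12, all with a higher value in p53 KO cells. That is 5 of 42, beside 5.92% of all tested genes in the same direction and 3.54% in the other, in which no member passed. The values were 0.24 ± 0.07 (adjusted p = 0.334) for GNL3, 0.39 ± 0.12 (adjusted p = 0.346) for LTV1, 0.18 ± 0.07 (adjusted p = 0.456) for NOP56, 0.27 ± 0.07 (adjusted p = 0.322) for NPM1 and 0.22 ± 0.08 (adjusted p = 0.415) for WDR12 on the log2 scale. Calls made in 1 genotype only are thus not shown to be differences between genotypes.

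Calls over a wider list of 106 further ribosome biogenesis genes leaned the same way with GCN2iB. With GCN2iB, 45 of the 106 were called higher and none lower in p53 KO cells, with a median log2 change of 0.159. None was lower there at an unadjusted p under 0.05, or by DESeq2 or limma voom. In WT cells 27 were called higher and 3 lower, with a median of 0.073. These are 42.5% higher in p53 KO cells, and 25.5% higher and 2.83% lower in WT cells. Of all tested genes, 11.4% were called higher and 8.71% lower in p53 KO cells, and 11.6% and 13.6% in WT cells. Their medians were -0.013 and -0.027. TCOF1 (treacle), which recruits RNA polymerase I and snoRNPs to rDNA, had the smallest adjusted p in both genotypes. It averaged 247 ± 9.51 CPM in p53 KO GCN2iB libraries and 148 ± 7.29 CPM in p53 KO Vehicle libraries, a 1.67-fold difference, and 243 ± 9.3 CPM in WT GCN2iB libraries and 132 ± 4.76 CPM in WT Vehicle libraries, a 1.84-fold difference (SD, n = 4 each). In p53 KO cells GTPBP4, a GTPase of large subunit assembly, was 1.42-fold higher (log2 change 0.50 ± 0.05 SE, adjusted p = 6.38e-07) and BRIX1, also a large subunit factor, 1.43-fold higher (0.51 ± 0.06, adjusted p = 4.7e-06).

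In WT cells SENP3, a SUMO protease that acts on large subunit factors, was 1.88-fold higher with GCN2iB (log2 change 0.91 ± 0.10 SE, adjusted p = 4.85e-07), although 41.2% of its exon length is shared with the readthrough SENP3-EIF4A1. RRP7A, a small subunit factor, was 1.61-fold higher (0.69 ± 0.08, adjusted p = 3.17e-06). The 3 called lower there were RCL1, 1.26-fold (adjusted p = 0.000267), IMP3, 1.39-fold (adjusted p = 0.00487, with 59.3% of its exon length shared with antisense genes), and LSG1, 1.13-fold (adjusted p = 0.0227). Of the 10 further RNA polymerase I genes, 2 were called higher in each genotype, TCOF1 among them, by each of the 3 tools. None was called lower, and at an unadjusted p under 0.05 0 were lower in p53 KO cells and 1 in WT cells.

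Between genotypes, 19 of the 106 were higher and 9 lower in p53 KO cells given GCN2iB, and 3 were higher and 15 lower given vehicle. These are 17.9% and 8.49% with GCN2iB, beside 12.7% and 11.2% of all tested genes, and 2.83% and 14.2% with vehicle, beside 9.63% and 12.1%. RRP15, a large subunit factor, was higher in p53 KO cells under both treatments, 1.37-fold with GCN2iB (adjusted p = 0.000186) and 1.23-fold with vehicle (adjusted p = 0.0077). SBDS, the protein mutated in Shwachman-Diamond syndrome, was 1.25-fold higher with GCN2iB (adjusted p = 0.000329) and 1.13-fold higher with vehicle (adjusted p = 0.0296). PNO1, a small subunit factor, was 1.44-fold higher with GCN2iB (adjusted p = 0.000302), and TCOF1 was 1.12-fold higher with vehicle (adjusted p = 0.0433). DIMT1, an rRNA dimethyltransferase, was 1.47-fold lower with GCN2iB (adjusted p = 3.01e-07) and 1.39-fold lower with vehicle (adjusted p = 2.57e-06). NMD3, the export adaptor of the large subunit, was 1.35-fold lower with GCN2iB (adjusted p = 0.000217) and 1.55-fold lower with vehicle (adjusted p = 1.79e-06). NOC4L was 1.36-fold lower with GCN2iB (adjusted p = 0.00183), and NLE1 was 1.28-fold lower with vehicle (adjusted p = 0.000779).

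Members with GC-rich transcripts and those with a shorter merged exon length had the higher log2 changes with GCN2iB. Across the 42 members, which share the 16 libraries, Pearson's r between the log2 change and the GC content of the longest transcript was 0.41 in p53 KO cells and 0.52 in WT cells. With the log2 of the merged length of all exons of a gene, r was -0.43 in p53 KO cells and -0.38 in WT cells. In WT cells, 6 of the 11 members above 55% GC were called higher and none lower, with a median log2 change of 0.363, while of all genes in that range 17.0% were called higher and 6.62% lower, with a median of 0.069. Of the 13 members below 45% GC, 1 was called higher and 4 lower in WT cells, with a median of -0.016 against -0.093 over all genes of that range, of which 8.32% were called higher and 19.1% lower. In p53 KO cells the medians were 0.302 over the members above 55% GC against 0.026 over all such genes, and 0.061 below 45% against -0.043. The part of base composition or length in the members' response was not tested. With per-library trends against GC content and transcript length removed, 27 members were called higher and 1 lower in p53 KO cells, and 24 higher and 5 lower in WT cells. Calls over all genes rose too, to 15.7% higher and 13.8% lower of 17678 genes in p53 KO cells and to 16.2% higher and 16.5% lower in WT cells. Some called members moved by over 1.5 times in that fit and kept their call. In WT cells the log2 change was 0.30 for BOP1, 0.16 for NOP10, 0.13 for RRP9 and -0.19 for WDR12, and in p53 KO cells that of NHP2 was 0.24.

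**Figure D4:**
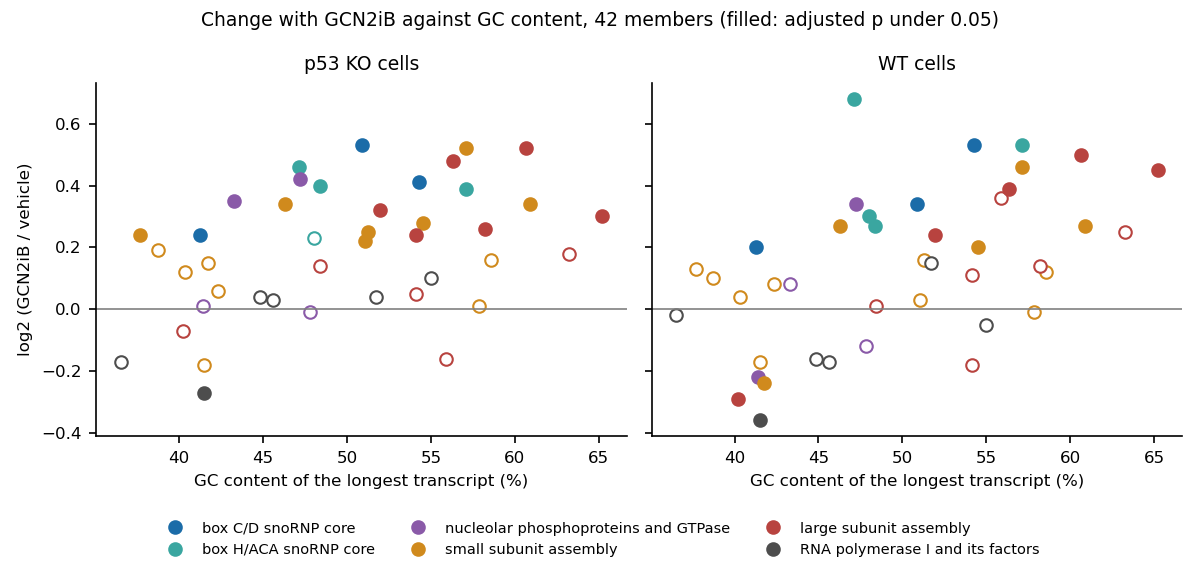
Log2 change with GCN2iB relative to vehicle (vertical axis) against the GC content of the longest transcript in percent (horizontal axis) for the 42 members, coloured by role, in p53 KO cells (left) and WT cells (right). Filled points passed an adjusted p of 0.05; in WT cells the 4 members called lower lie below 45% GC, and Pearson's r was 0.41 in p53 KO cells and 0.52 in WT cells.

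Members whose introns hold snoRNA genes did not stand apart from the others. With GCN2iB, 5 of the 10 such members were called higher in p53 KO cells, with a median log2 change of 0.20, beside 16 of the 32 others with a median of 0.234. In WT cells 4 of 10 were called higher and 1 lower, with a median of 0.116, beside 12 higher and 3 lower of 32 with a median of 0.134. Levels per length differed widely between members. In WT Vehicle libraries the mean CPM per kilobase of exon was highest for NPM1, at 438, and the median over the members was 24.0. By role, the median was 150 for the nucleolar phosphoproteins and GTPases, 56.9 for H/ACA and 50.8 for C/D core proteins, 19.9 for small subunit factors, 18.7 for large subunit factors and 10.9 for RNA polymerase I genes.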

How the data were processed

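The deposited table holds raw read counts per gene, not normalized by the authors, for 16 libraries. Trim Galore, HISAT2, featureCounts and DESeq2, with the build GRCh38, are listed in the submitters' processing notes. Their versions, the annotation and the strandedness of counting are not given in the sources at hand. Identifiers were matched to GENCODE 29 (58261 of 62754 with a position).

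Counts of library totals between 17418072 and 39915685 were fitted with edgeR 4.0.16 in R 4.3.3 (filterByExpr, TMM, robust quasi-likelihood fit, 1 term per group over 16 libraries). Tests were two-sided, with Benjamini-Hochberg adjustment over 18549 genes and a threshold of 0.05. SE is the log2 change divided by the square root of F. The test was checked on simulated counts. Alternatives used DESeq2 1.42.0, limma 3.58.1 (voom), other scalings and filters, a replicate block and libraries left out. GC and length trends were removed (splines with 5 degrees of freedom, fitted on 12999 genes) as an alternative chosen after the data were seen. Figures were drawn with matplotlib 3.10.9.

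The members and lists were chosen with earlier results of these data known. Values per library are given for up to 4 called members of each role with the smallest adjusted p in a comparison, and further pathway genes are the 3 called higher and the 3 called lower with the smallest adjusted p. CDKN1A, MDM2, ATF4 and CHAC1 served as checks. The targeted gene is not reported here.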

Additional observations from a re-analysis of the deposited data

Results flagged for a closer look

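Within a group of 4 libraries, a library was singled out where its gap to the nearest other library, relative to the group's range, passed Dixon's critical value. This held for 13 of 168 combinations of member and group, and chance gives about 1 in 20, or 8.4.

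The library p53 KO GCN2iB 4 accounts for 6 of the 13, with transcripts on both sides of its group. It was high for FBL (508 CPM, others 362 to 386 CPM), RRP9 (150.5 CPM, others 115 to 119 CPM) and RRP1 (137 CPM, others 110.2 to 114 CPM). It was low for NOLC1 (408 CPM, others 469 to 475 CPM), UTP20 (44.5 CPM, others 62.9 to 64.7 CPM) and HEATR1 (46.6 CPM, others 75.7 to 79.7 CPM). The GCN2iB calls of FBL, RRP9 and RRP1 in p53 KO cells were kept when the replicate 4 libraries were left out.

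The library p53 KO Vehicle 1 was low for NOL6 (164 CPM, others 187 to 191 CPM), RRP12 (110.0 CPM, others 125 to 128 CPM) and RRP1 (72.7 CPM, others 85.9 to 87.2 CPM). WT Vehicle 1 was low for NOL6 as well (158 CPM, others 189 to 194 CPM). The remaining cases were NOLC1 in p53 KO Vehicle 4 (425 CPM, others 468 to 472 CPM), NOP56 in WT Vehicle 4 (284 CPM, others about 271 CPM) and MRTO4 in WT Vehicle 3 (58.3 CPM, others 60.1 to 60.4 CPM).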

How the results depend on the processing

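No direction of a called member reversed under any of the 26 alternatives run in each comparison. Calls kept in all 26 were 16 of 22 for GCN2iB in p53 KO cells, 15 of 20 in WT cells, 3 of 10 between genotypes given GCN2iB and 5 of 5 given vehicle. Counts and medians of the members that moved are given here, and the cause was not tested.

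Scaled by library totals, the median log2 change with GCN2iB was 0.152 in p53 KO cells, with 2 members lower, and 0.103 in WT cells. Between genotypes given vehicle that scaling gave a median of 0.006 and 2 members higher, and the interaction median was 0.042. With a mean of at least 50 counts the medians were 0.199 for GCN2iB in p53 KO cells, -0.017 between genotypes given vehicle and 0.031 for the interaction. Between genotypes given GCN2iB, 2 members were higher without a filter beyond 1 count and 3 in a fit of those groups alone. With GC and length trends removed, the median with GCN2iB in p53 KO cells was 0.186. The same correction gave 4 higher and 7 lower between genotypes given vehicle (median -0.024), 11 higher and 12 lower given GCN2iB, and an interaction median of 0.05. Without both GCN2iB replicate 4 libraries, the median in p53 KO cells was 0.194, and between genotypes given GCN2iB 8 were lower and the median was 0.007.

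Leaving out 1 library at a time gave 18 to 22 higher and 1 lower for GCN2iB in p53 KO cells (median 0.195 to 0.237), and 13 to 18 higher and 3 to 5 lower in WT cells (0.132 to 0.173). Between genotypes it gave 2 to 8 higher and 2 to 7 lower given GCN2iB (0.013 to 0.032), and 1 to 2 higher and 4 to 5 lower given vehicle (-0.085 to -0.044). Given GCN2iB, 2 were higher without WT GCN2iB 3 and 3 without WT GCN2iB 2 or 4 or p53 KO GCN2iB 1, 2 or 3. The 2 lower came without WT GCN2iB 3 or p53 KO GCN2iB 1 or 2, the 7 lower without p53 KO GCN2iB 4, and the 2 higher given vehicle without WT Vehicle 1, WT Vehicle 3 or p53 KO Vehicle 2. The interaction median ranged from 0.056 to 0.086.

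The labels name no pairing of replicate numbers. Of 24 same-number pairs of libraries, 12 had residuals correlated above 0.1 (median 0.0949), and 11 of 16 libraries correlated best with their own number, which is a hint from the data and not from the design. With a replicate block, 10 members were higher and 7 lower between genotypes given GCN2iB, and 7 were lower given vehicle. Of all 18549 genes, the block called 3015 higher and 2760 lower given GCN2iB, and 2297 higher and 2906 lower given vehicle. The block gave 25 higher and 1 lower for GCN2iB in p53 KO cells, 20 higher and 5 lower in WT cells, and none for the interaction. Over all genes it gave 2864 higher and 2437 lower in p53 KO cells, against 2119 and 1615 without it. In WT cells it gave 2849 higher and 3290 lower over all genes, against 2153 and 2524. The rise in calls with the block was thus not limited to the members.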
